A study of Mus musculus with 24 samples.

Results

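The liver takes apart most of the amino acids that a meal brings beyond the need for protein synthesis, and 9 enzymes that do so are described here in liver RNA of mice during the first hours of a diet low in methionine. The enzymes were chosen by name as tyrosine aminotransferase (Tat), 4-hydroxyphenylpyruvate dioxygenase (Hpd), tryptophan 2,3-dioxygenase (Tdo2), histidine ammonia lyase (Hal), serine dehydratase (Sds), alanine-glyoxylate aminotransferase (Agxt), cytosolic aspartate aminotransferase (Got1), cytosolic alanine aminotransferase (Gpt) and ornithine aminotransferase (Oat). All 9 are listed among the 9049 genes of the deposited table. The 24 livers came from male C57BL6/J mice aged 2 months, 6 in each of 4 groups. All of these mice had first been kept on the control diet with the light cycle reversed, and ate only during the dark hours, since food was removed during the light. On the last day they received either the control diet (Con), with 0.86% methionine, or the methionine-restricted diet (MR), with 0.17% methionine, both made from elemental amino acids. As the authors list the diets, MR also held more glutamic acid than Con. Livers were taken after 3 h (Con at 3 h, MR at 3 h) or 6 h (Con at 6 h, MR at 6 h), so that time on the diet, time since the return of food and hour of the day cannot be told apart. The RNA libraries held tags from the 3′ end of each transcript.

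Breakdown of an amino acid usually starts with the removal of its nitrogen. Aminotransferases pass the amino group to 2-oxoglutarate or another keto acid, whereas lyases and dehydratases release it as ammonia, and the carbon skeletons then feed glucose synthesis, ketone bodies or the citric acid cycle. In rodent liver several of these enzymes are classic targets of glucocorticoids, glucagon and cyclic AMP. Tat in particular is known for its induction by glucocorticoids and for a daily rhythm that follows feeding, and Sds for its response to dietary protein and glucagon. Along the liver lobule Hal and Sds are known as periportal genes and Oat as a pericentral one.

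The sequences before the transcription start are given for Tat, Hal and Agxt, the members whose levels were higher at 6 h than at 3 h in at least one diet. They come from RefSeq for build GRCm38.p6, where 7 of the 9 members have a promoter entry, and run 5′ to 3′ for the 250 bases that end just before the start. Capitals mark matches to the motifs searched on both strands. Tat at chr8:109990186-109990435 (plus strand), Hal at chr10:93488518-93488767 (plus strand) and Agxt at chr1:93134990-93135239 (plus strand) read as follows.
Tat: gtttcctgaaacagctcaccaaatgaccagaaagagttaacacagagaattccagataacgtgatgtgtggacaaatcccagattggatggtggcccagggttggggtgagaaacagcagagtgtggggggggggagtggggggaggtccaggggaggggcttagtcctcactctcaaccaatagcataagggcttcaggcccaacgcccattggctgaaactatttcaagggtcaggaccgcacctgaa
Hal: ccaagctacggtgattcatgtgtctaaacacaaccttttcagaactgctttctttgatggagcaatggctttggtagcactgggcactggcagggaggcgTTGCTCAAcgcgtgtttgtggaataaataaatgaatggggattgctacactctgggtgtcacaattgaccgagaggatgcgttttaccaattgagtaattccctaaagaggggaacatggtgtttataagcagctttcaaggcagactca
Agxt: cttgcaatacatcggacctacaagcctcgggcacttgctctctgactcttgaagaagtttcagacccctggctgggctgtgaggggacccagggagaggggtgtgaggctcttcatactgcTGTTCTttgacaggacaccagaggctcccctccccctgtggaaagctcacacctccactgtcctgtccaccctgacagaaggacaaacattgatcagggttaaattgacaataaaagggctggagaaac
The Tat gene as RefSeq annotates it begins further upstream, at 109986078, so the Tat window lies inside the span of the gene and precedes a transcript start at 109990436. The window searched ran from 250 bases before to 50 bases after the start. In Hal the capitals mark a match to the C/EBP motif TTGCNNAA, 150 to 143 bases before the start, and 10.8% of the 27025 promoters in the table hold such a match. The capitals in Agxt mark AGAACA, the site of a single glucocorticoid receptor subunit, read on the minus strand, 129 to 124 bases before the start (19.0% of all promoters). Among the other members, Got1 held the amino acid response element TGATGNAAN on the minus strand 103 to 95 bases before the start (4.04% of all promoters), Tdo2 the FOXA motif TGTTTNC on the minus strand 182 to 176 bases before the RefSeq start (20.5%), in a stretch that GENCODE places within a longer Tdo2 transcript, and Oat the core TGACG of the cyclic AMP element 34 to 38 bases after it (21.02%). The full cyclic AMP response element TGACGTCA, which contains that core (1.88% of all promoters), and the HNF4 motif CAAAGTCC (1.44%) were found in none of the 7 windows, and Tat and Hpd held none of the motifs. Among the 7044 promoters of genes listed here, 8.89% held TTGCNNAA, 12.6% AGAACA, 2.12% TGATGNAAN, 15.8% TGTTTNC and 33.8% TGACG.

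Levels are in units of the deposited score after TMM scaling, and the deposited columns sum to between 991702 and 995314 units in all libraries, so read depth is unknown. Of 10 hepatocyte markers 9 were listed, with a summed level of 161913 to 217785 units, whereas none of 8 markers of T, B and NK cells was listed. Within a group, libraries correlated across genes with Pearson's r between 0.960 and 0.995. Still, 3 libraries stood apart in markers of other cells. The Con 6 h mouse m4238 had a summed level of 1145 units over 11 Kupffer cell and macrophage markers, against at most 631 units in the other libraries, and 548 units over the 5 listed stellate cell and fibroblast markers, against at most 358 units. Pancreatic acinar markers (10 of 18 listed) reached 1763 units in the MR 3 h mouse m4223 and at most 48.4 units elsewhere, and adrenal cortex markers (5 of 10 listed) 508 units in the MR 6 h mouse m4214 and at most 64.7 units elsewhere. In such bulk RNA, fewer hepatocytes and less RNA per hepatocyte cannot be told apart.

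None of the 9 enzymes passed the test over all genes (adjusted p under 0.05) between MR and Con at 3 h or at 6 h. When the diets were averaged, 7 of them passed between 3 h and 6 h. Tat, Hal and Agxt were higher at 6 h, Tdo2, Sds, Got1 and Gpt were lower, and Hpd and Oat did not pass the test. This average over diets was added after the values were seen. It called 19.5% of the 9049 genes higher and 20.1% lower, so 7 of 9 members stand beside a background in which many genes differed between these times. The plot of levels by mouse shows each value, and the plot of differences shows how the diet effects gathered around 0 while the time effects spread to both sides.

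**Figure D1:**
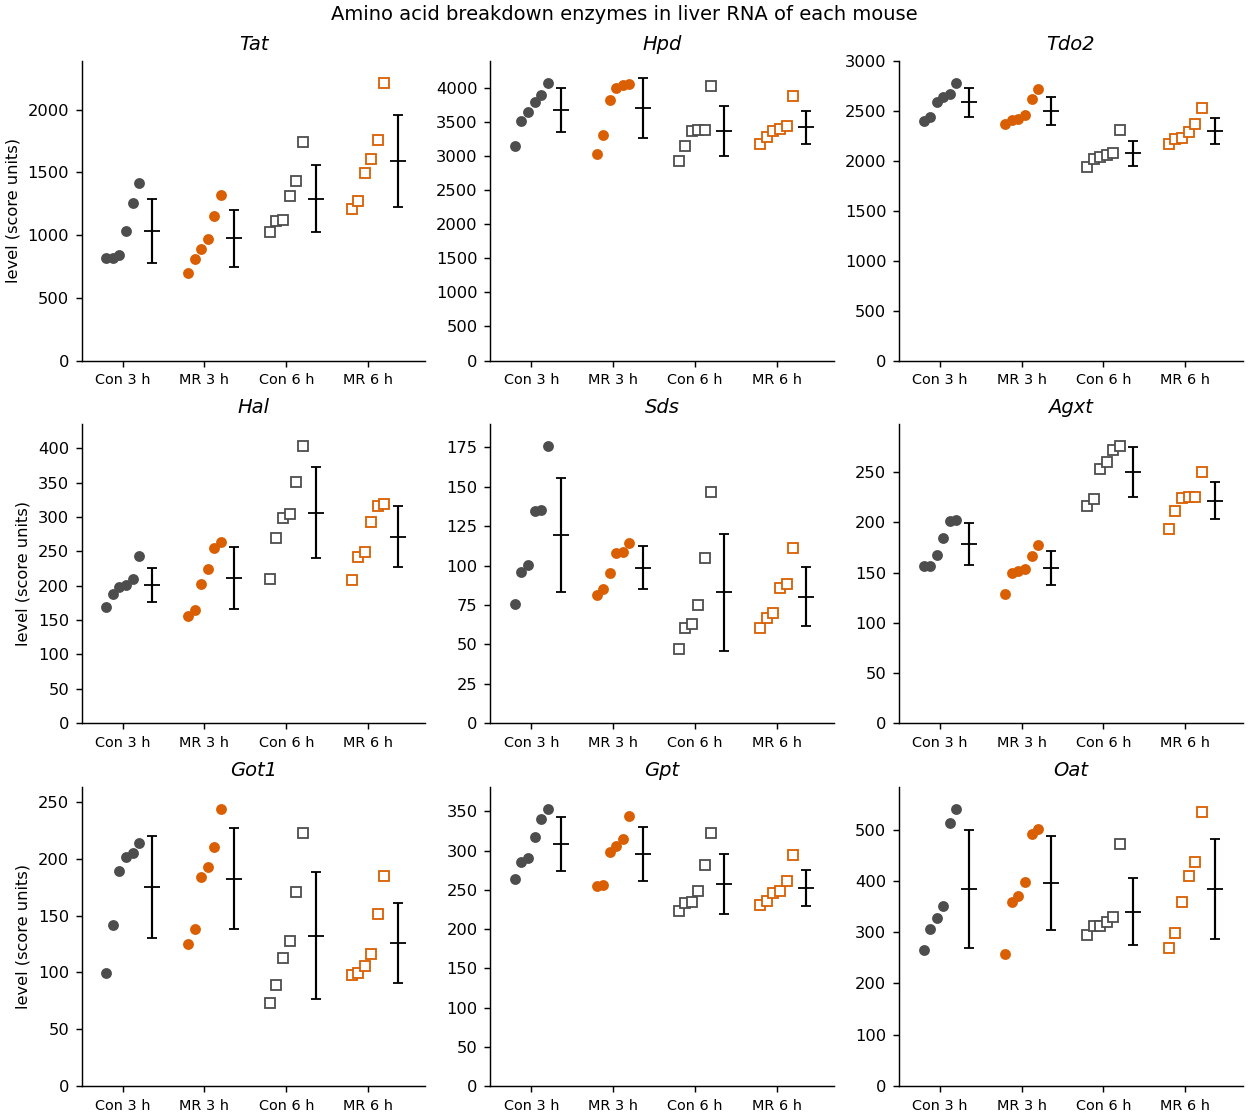
Level of each of the 9 enzymes in score units (y axis, from 0) in each mouse of the 4 groups (x axis). Filled circles are mice at 3 h and open squares mice at 6 h, grey on Con and orange on MR, and the black bars give the mean and SD of 6 mice. Agxt at 6 h lay above all 3 h values of the same diet, and Tdo2 on Con at 6 h lay below them.

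**Figure D2:**
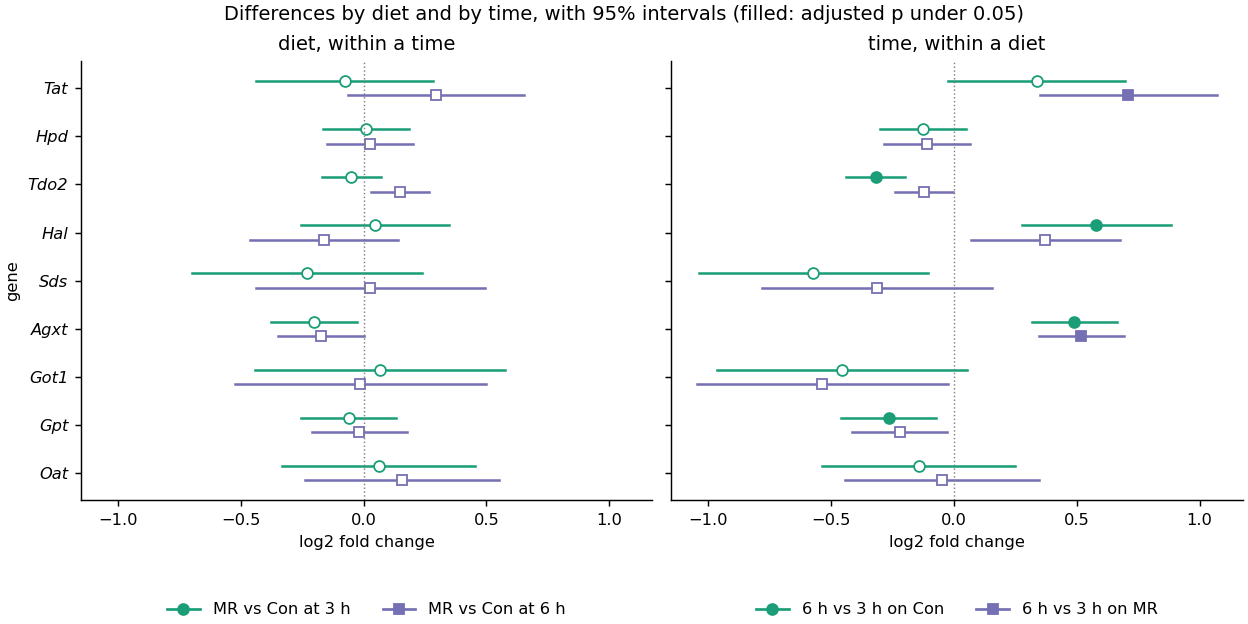
Log2 fold change (x axis) of each enzyme (y axis) for MR against Con at 3 h and 6 h (left) and for 6 h against 3 h on Con and on MR (right). Lines are 95% intervals and filled symbols have an adjusted p under 0.05. No symbol is filled on the left, and 6 are filled on the right.

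Tat transfers the amino group of tyrosine to 2-oxoglutarate, the first and rate-limiting step of tyrosine breakdown, and its gene lies on chromosome 8 from 109986078 to 109999804. In Con at 3 h the lowest, median and highest levels were 816, 937 and 1417 units, and in MR at 3 h they were 699, 929 and 1322 units. At 6 h they were 1026, 1218 and 1745 units on Con and 1206, 1551 and 2211 units on MR. The group means ranked in the order MR at 3 h, Con at 3 h, Con at 6 h and MR at 6 h, and each group overlapped its neighbour. On MR, the mean was 974 ± 229 units (SD, n = 6) at 3 h and 1592 ± 366 units (SD, n = 6) at 6 h, a rise of 63.6% (95% interval 27.5 to 109.9, log2 fold change 0.71, SE 0.17, adjusted p = 0.00346, exact two-sided permutation p = 0.00649). Levels on Con went from 1030.3 ± 256 to 1292 ± 267 units (SD, n = 6 each), and this difference of 0.34 on the log2 scale (SE 0.17) did not pass the test (adjusted p = 0.179, exact permutation p = 0.0909). That the rise on MR passed the test and that on Con did not does not by itself show that the diets differ. The interaction was 0.37 (SE 0.25, 95% interval -0.14 to 0.88) and did not pass (adjusted p = 0.811). A difference between the diets in this rise is thus neither shown nor excluded. At 6 h the MR mean stood 22.7% above that of Con, with an interval from -4.39 to 57.4% (adjusted p = 0.441, exact permutation p = 0.121).

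Hpd turns the keto acid that Tat makes into homogentisate, and its gene lies on chromosome 5 from 123171807 to 123182723. Levels lay between 3155 and 4075 units in Con at 3 h, 3029 and 4069 units in MR at 3 h, 2931 and 4032 units in Con at 6 h, and 3175 and 3884 units in MR at 6 h. All 4 ranges overlapped. MR differed from Con by 0.623% at 3 h (95% interval -10.9 to 13.6) and by 1.81% at 6 h (-9.84 to 14.97). The difference between 6 h and 3 h was -8.44% on Con and -7.36% on MR, and neither passed the test (adjusted p = 0.305 and 0.363), nor did their average (log2 fold change -0.12, SE 0.06, adjusted p = 0.122). The average over diets passed only without the MR 3 h mouse m4204 (adjusted p = 0.0438) or the Con 6 h mouse m4241 (adjusted p = 0.0485) among the mice left out in turn.

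Tdo2 opens the ring of tryptophan and starts the kynurenine pathway, and its gene lies on chromosome 3 from 81958412 to 81975728. Its lowest, median and highest levels were 2401, 2615 and 2778 units in Con at 3 h and 1937, 2047 and 2313 units in Con at 6 h. These groups did not overlap. The mean fell from 2588 ± 143 to 2075 ± 126 units (SD, n = 6 each), a log2 fold change of -0.32 (SE 0.06, adjusted p = 3.76e-04, exact permutation p = 0.00216, the smallest this design allows). In MR the levels were 2369, 2439 and 2723 units at 3 h and 2168, 2259 and 2527 units at 6 h, which overlapped, and the difference of -0.12 (SE 0.06) did not pass the test over all genes (adjusted p = 0.125, exact permutation p = 0.0303). At 6 h MR lay above Con by 10.9% (95% interval 2.16 to 20.4), with an exact permutation p of 0.013 that did not hold after adjustment over all genes in limma (adjusted p = 0.250). The interaction, 0.20 on the log2 scale (SE 0.08), did not pass either (adjusted p = 0.645). Without m4238, m4223 and m4214 the fall on MR passed the test (log2 fold change -0.16, adjusted p = 0.0422).

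Hal releases ammonia from histidine to give urocanate, the first step of histidine breakdown, and its gene lies on chromosome 10 from 93488768 to 93516761. Con mice had levels of 169, 199.8 and 243 units (lowest, median and highest) at 3 h and of 210.3, 302 and 403 units at 6 h. Only 1 of the 6 mice at 6 h, m4222, fell within the range of the 3 h mice. The rise from 202 ± 24.8 to 306 ± 66.4 units (SD, n = 6 each) was 49.5% (95% interval 21.2 to 84.3, adjusted p = 0.00684, exact permutation p = 0.00649). In MR the values were 156, 214 and 263 units at 3 h and 209, 271 and 318 units at 6 h, a difference of 29.4% that missed the threshold (adjusted p = 0.0602, exact permutation p = 0.0519). It passed when any of the mice m4208, m4209, m4214, m4222 or m4238 was left out, with an adjusted p between 0.0299 and 0.0456. The highest value on Con, 403 units, was that of m4238, which also had the lowest sum of pericentral hepatocyte markers of all libraries (5745 units over 14 genes, against a median of 10224 units). Cyp2e1, with a mean of 7592 units over all libraries, is on average the largest part of such a sum. Without m4238, m4223 and m4214 the rise on Con was kept (log2 fold change 0.49, adjusted p = 0.0150), and the difference on MR passed as well (0.43, adjusted p = 0.0324). The part of this library's cell makeup in its Hal level was not tested.

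Sds turns serine and threonine into keto acids and ammonia, and its gene lies on chromosome 5 from 120476547 to 120483932. The lowest, median and highest levels were 75.9, 117 and 176 units in Con at 3 h, 81.7, 102 and 114 units in MR at 3 h, 47.3, 69.1 and 147 units in Con at 6 h, and 60.2, 78.0 and 111 units in MR at 6 h. All groups overlapped. The difference between 6 h and 3 h was -32.7% on Con (95% interval -51.3 to -6.97, adjusted p = 0.0781, exact permutation p = 0.0823) and -19.5% on MR (-41.8 to 11.2, adjusted p = 0.327), and neither passed alone. Averaged over diets, Sds fell by 0.44 on the log2 scale (SE 0.16, adjusted p = 0.0310). This call held in 17 of 24 fits that each left out a mouse, and was lost without m4215, m4222, m4229, m4231, m4233, m4234 or m4239 (adjusted p at most 0.0578). The mouse m4238 again had the highest value of Con at 6 h, 147 units against 47.3 to 105 units in the other mice. Without it the difference on Con was -0.76 (SE 0.20) and passed (adjusted p = 0.00866), as it also did without m4218 (adjusted p = 0.0397). MR differed from Con by -14.8% at 3 h (95% interval -38.4 to 17.9) and by 1.94% at 6 h (-26.3 to 40.9).

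Agxt moves the amino group of alanine to glyoxylate and so makes glycine, which keeps glyoxylate from becoming oxalate, and its gene lies on chromosome 1 from 93135240 to 93145421. Con mice had 157, 176 and 202 units (lowest, median and highest) at 3 h and 216, 257 and 276 units at 6 h. MR mice had 129, 152 and 178 units at 3 h and 193, 225 and 249.8 units at 6 h. Within either diet the 6 h mice all lay above the 3 h mice. Agxt rose by 40.5% on Con (95% interval 24.5 to 58.5, adjusted p = 2.53e-04) and by 43.3% on MR (27.0 to 61.7, adjusted p = 5.85e-05), each with an exact permutation p of 0.00216, and both calls held whichever mouse was left out. The order from low to high was MR at 3 h, Con at 3 h, MR at 6 h and Con at 6 h, so that MR lay below Con at either time. This difference was -13.1% at 3 h (95% interval -23.0 to -1.96), from 178 ± 20.8 to 155 ± 16.6 units (SD, n = 6 each, adjusted p = 0.697, exact permutation p = 0.0584). At 6 h it was -11.4% (95% interval -21.4 to 0.0126), from 250.4 ± 25.0 to 222 ± 18.6 units (adjusted p = 0.352, exact permutation p = 0.0541). Averaged over times it was -0.19 on the log2 scale (SE 0.06, 95% interval -0.31 to -0.07), and it did not pass over all genes (adjusted p = 0.160).

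Got1 exchanges amino groups between aspartate and glutamate in the cytosol, and its gene lies on chromosome 19 from 43499752 to 43524605. Levels were 99.7, 196 and 214 units (lowest, median and highest) in Con at 3 h, 125, 189 and 244 units in MR at 3 h, 73.1, 120.1 and 223 units in Con at 6 h, and 98.0, 111 and 185 units in MR at 6 h. The ranges overlapped widely, and m4238 held the highest value of Con at 6 h. Against 3 h, the level at 6 h differed by -27.0% on Con (95% interval -48.8 to 3.86, adjusted p = 0.202) and by -31.0% on MR (-51.5 to -1.77, adjusted p = 0.112, exact permutation p = 0.039), and neither passed. Over both diets Got1 fell by 0.50 on the log2 scale (SE 0.17, adjusted p = 0.0272), a call that was lost without the MR 3 h mouse m4204 (adjusted p = 0.0504). The diet differences were 4.77% at 3 h (95% interval -26.4 to 49.2) and -0.91% at 6 h (-30.4 to 41.1).

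Gpt exchanges amino groups between alanine and glutamate in the cytosol, and its gene lies on chromosome 15 from 76696726 to 76699675. In Con the lowest, median and highest levels were 264, 304 and 353 units at 3 h and 223, 242 and 323 units at 6 h. In MR they were 255, 302 and 344 units at 3 h and 230.4, 247 and 294 units at 6 h. The medians were lower at 6 h on both diets, though the ranges overlapped. Gpt fell by 16.8% on Con (95% interval -27.2 to -4.82%, adjusted p = 0.0485, exact permutation p = 0.0368), close to the threshold, and the call held in only 8 of 24 fits that left out a mouse, those without m4204, m4210, m4216, m4218, m4219, m4220, m4221 or m4241. The adjusted p in these 24 fits ranged from 0.0106 to 0.116, and the call held in 6 of 9 other settings of the fit. On MR the difference was -14.2% (adjusted p = 0.0812, exact permutation p = 0.026). Averaged over diets it fell by 0.24 on the log2 scale (SE 0.07, adjusted p = 0.00515), and this call held whichever mouse was left out. MR differed from Con by -4.16% at 3 h and -1.24% at 6 h.

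Oat moves the delta-amino group of ornithine to 2-oxoglutarate and links arginine breakdown with proline and glutamate, and its gene lies on chromosome 7 from 132557475 to 132576398. Levels were 266, 339 and 541 units (lowest, median and highest) in Con at 3 h, 257, 384 and 501 units in MR at 3 h, 295, 316 and 472 units in Con at 6 h, and 268, 384 and 534 units in MR at 6 h. Mice of 1 group differed by as much as mice of different groups. None of the comparisons passed, with log2 fold changes of 0.06 and 0.16 for MR against Con at 3 h and 6 h and of -0.14 and -0.05 for 6 h against 3 h on Con and on MR, each with SE 0.19.

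Counting over the members, 0 of 9 passed between MR and Con at 3 h, where 0% of all genes were called higher and 0% lower (603 genes at an unadjusted p under 0.05, smallest adjusted p 0.553). At 6 h 0 of 9 passed, beside 0.608% of all genes called higher on MR and 0.133% lower. The interaction of diet and time called 0 of 9, beside 0.0663% of genes higher and 0% lower. Likewise 0 of 9 passed for MR against Con averaged over times, a contrast added after the values were seen, beside 0.298% of genes higher and 0% lower. On Con, 2 of 9 rose with time (Hal, Agxt) and 2 fell (Tdo2, Gpt), beside 9.23% of all genes higher and 10.4% lower. On MR 2 of 9 rose (Tat, Agxt) and 0 fell, beside 13.9% higher and 14.2% lower. The median log2 fold change of the members was -0.14 on Con and -0.11 on MR, and that of all genes was -0.01 on both. For comparison, Fgf21, a liver hormone gene on the cyclic AMP and fasting list, named here after its values were seen, rose in MR at 6 h from 11.4 ± 7.80 units in Con to 107 ± 43.8 units (SD, n = 6 each, adjusted p = 0.0168).

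The same reactions are also carried out by enzymes that other genes encode. Gpt2, the mitochondrial alanine aminotransferase, rose on MR from 209.8 ± 11.6 units at 3 h to 266 ± 37.1 units at 6 h (SD, n = 6 each), a log2 fold change of 0.33 (SE 0.08, adjusted p = 0.00263), while on Con it was 219 units at both times. At 6 h Gpt2 was 20.7% higher on MR than on Con (95% interval 7.87 to 35.1, exact permutation p = 0.0173), which did not pass over all genes (adjusted p = 0.114), and the interaction did not pass either (adjusted p = 0.512). Got2, the mitochondrial aspartate aminotransferase, Agxt2, a mitochondrial aminotransferase, and Sdsl, a relative of Sds, passed in none of these comparisons. Got2 means ranged from 369 to 399.9 units, Agxt2 means from 155 to 165 units and Sdsl means from 9.27 to 12.7 units over the 4 groups.

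The wider pathways were described with 8 lists of genes for the breakdown of single amino acids or groups of them, 86 measured genes in all and 77 without the members. No gene of these lists passed between MR and Con at 3 h or 6 h. Of the 77 genes, 7 rose and 6 fell with time on Con, and 18 rose and 8 fell on MR, beside the shares of all genes given above. The histidine list, which includes the member Hal, had 6 measured genes with positive differences in 6 of 6 on either diet, and 2 of them passed on each. The smallest of these differences was 0.04 on the log2 scale on Con and 0.10 on MR, beside a median of all genes of -0.01 on both. Next to Hal, Amdhd1, which acts later in histidine breakdown, rose from 93.8 ± 9.09 to 147 ± 9.23 units on Con (SD, n = 6 each, adjusted p = 1.34e-05) and from 88.4 ± 10.1 to 133 ± 17.4 units on MR (adjusted p = 1.53e-05). Ftcd, which passes the one-carbon unit of histidine to folate, rose on MR with a log2 fold change of 0.23 (SE 0.08, adjusted p = 0.0323).

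In the serine, glycine and threonine list of 19 genes, 3 rose and 1 fell with time on Con, and 7 rose and 0 fell on MR. With Agxt, the aminomethyltransferase of glycine cleavage, Amt, rose by 0.65 on the log2 scale on Con (SE 0.11, adjusted p = 2.30e-04) and on MR (SE 0.11, adjusted p = 8.95e-05). The serine hydroxymethyltransferases Shmt1 and Shmt2 rose on MR by 0.42 (SE 0.11, adjusted p = 0.00491) and 0.37 (SE 0.10, adjusted p = 0.00558), and Shmt2 at 6 h was 226 ± 21.9 units on MR against 177 ± 26.9 units on Con, which missed the threshold (adjusted p = 0.0878). Of 8 tyrosine and phenylalanine genes, 0 rose and 1 fell on Con, and 3 rose and 1 fell on MR. Of 11 tryptophan and kynurenine genes, 2 rose and 1 fell on Con and 3 rose and 1 fell on MR. Kyat1, a kynurenine aminotransferase, rose from 73.5 ± 8.12 to 109 ± 14.5 units on Con (adjusted p = 1.74e-04) and from 68.1 ± 5.68 to 126 ± 17.6 units on MR (adjusted p = 3.55e-07). Tdo2 at the head of the pathway was lower at 6 h on Con, and its fall on MR did not pass (adjusted p = 0.125). Kyat3, also on this list, passed on neither diet alone and fell by 0.34 averaged over diets (SE 0.10, adjusted p = 0.00773).

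Among 9 genes of glutamate, alanine and aspartate, 1 rose and 1 fell on Con and 2 rose on MR. Glud1, the glutamate dehydrogenase that frees the collected amino groups as ammonia, rose by 0.19 on Con (SE 0.06, adjusted p = 0.0404) and by 0.33 on MR (SE 0.06, adjusted p = 3.19e-04). The ornithine, proline and arginine list had 7 measured genes, of which 0 rose and 3 fell on Con and 1 rose and 2 fell on MR. Arginase, Arg1, fell on MR by 0.33 (SE 0.10, adjusted p = 0.0148) and Aldh4a1, which oxidizes the product shared by proline and ornithine breakdown, rose by 0.20 (SE 0.06, adjusted p = 0.0158). Branched-chain genes (23 measured) mostly did not pass, with 1 up and 1 down on Con and 2 up and 2 down on MR. Ppm1k, the phosphatase that activates branched-chain keto acid dehydrogenase, rose by 0.77 on Con (SE 0.18, adjusted p = 0.00337) and by 0.96 on MR (SE 0.18, adjusted p = 2.48e-04). Of 6 lysine genes 0 rose, 1 fell on Con and 2 fell on MR, among them Aass, the first enzyme of lysine breakdown, on MR (log2 fold change -0.32, SE 0.10, adjusted p = 0.0170).

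**Figure D3:**
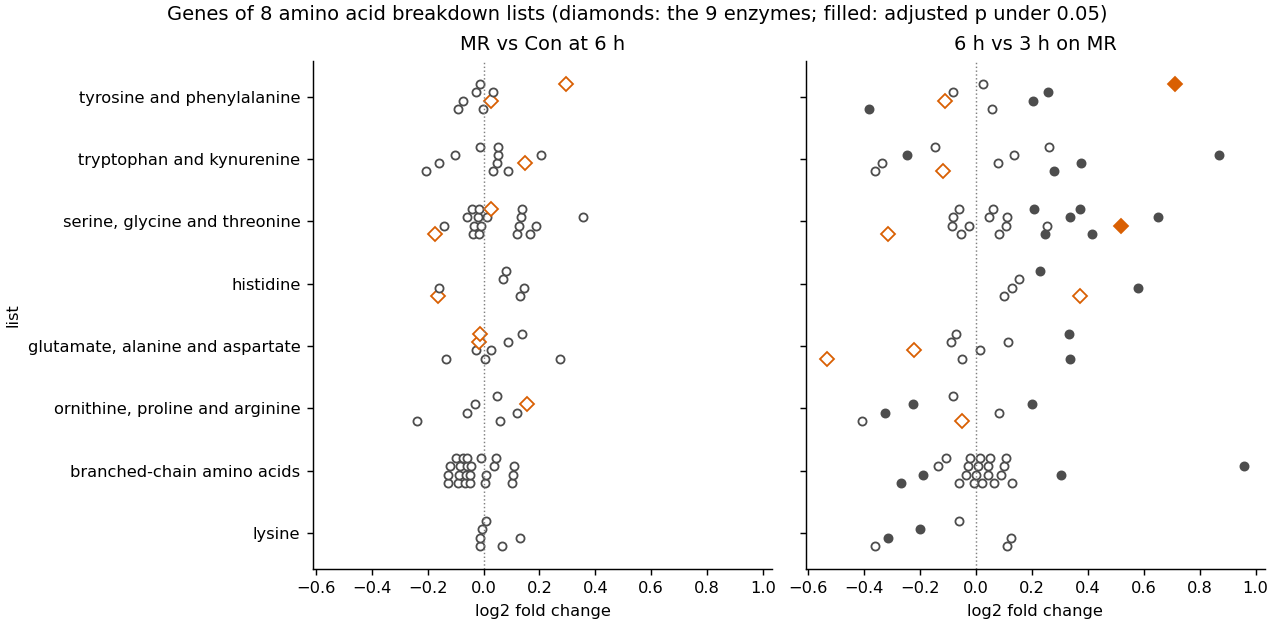
Log2 fold change (x axis) of each measured gene of 8 amino acid breakdown lists (y axis) for MR against Con at 6 h (left) and for 6 h against 3 h on MR (right). Each symbol is a gene, orange diamonds are the 9 enzymes, and filled symbols have an adjusted p under 0.05. None is filled on the left.

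Of 18 measured regulators of amino acid breakdown, 0 rose and 3 fell with time on Con, and 1 rose and 2 fell on MR. The genes named here were chosen after their values were seen. Cebpa fell on Con by 0.30 on the log2 scale (SE 0.09, adjusted p = 0.0227), Creb1 fell by 0.20 on Con and 0.28 on MR (SE 0.07 each, adjusted p = 0.0445 and 0.00377), and Crem rose by 0.38 on MR (SE 0.09, adjusted p = 0.00197). In a list of 11 glucocorticoid response genes, 2 rose and 1 fell on Con and 2 rose and 2 fell on MR. In a list of 13 genes of the cyclic AMP and fasting response, which holds the members Tat and Sds, 3 rose and 1 fell on Con and 7 rose and 2 fell on MR. Of all genes, 9.23% rose and 10.4% fell on Con, and 13.9% rose and 14.2% fell on MR.

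Some of the enzymes also varied together between mice of the same group. Deviations from the group means were compared in all 36 pairs of members over 24 mice, of which 27 pairs had a positive and 9 a negative correlation. After adjustment over the 36 pairs, 3 pairs passed a permutation test within groups by both Pearson's r and Spearman's rho. Tat and Hal had Pearson's r = 0.70 (permutation p = 4.40e-04, adjusted p = 0.0158) and Spearman's rho = 0.68 (permutation p = 7.50e-04, adjusted p = 0.0196), and r was 0.65 without the 2 mice farthest from the median of Tat. Sds and Got1 had r = 0.69 (permutation p = 0.00162, adjusted p = 0.0292) and rho = 0.69 (permutation p = 0.00109, adjusted p = 0.0196), with r = 0.58 without the 2 farthest mice. Hpd and Gpt had r = 0.65 (permutation p = 0.00254, adjusted p = 0.0305) and rho = 0.64 (permutation p = 0.00307, adjusted p = 0.0325), with r = 0.50 without the 2 farthest mice. By rho alone, Sds and Gpt (rho = 0.60, permutation p = 0.00361, adjusted p = 0.0325, r = 0.55 with adjusted p = 0.118) and Agxt and Gpt (rho = 0.59, permutation p = 0.00649, adjusted p = 0.0467, r = 0.51 with adjusted p = 0.118) passed as well. Such deviations can also be shared through the makeup of a library, whose part was not tested.

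The mouse m4238, with the high Kupffer cell and macrophage markers, was the highest of its group in both Sds and Got1. Without this mouse their r was 0.59 (permutation p = 0.00805, adjusted p = 0.058) and their rho 0.60 (permutation p = 0.00619, adjusted p = 0.0557), which missed the threshold over the 36 pairs. Tat and Hal (r = 0.71), Hpd and Gpt (r = 0.65) and Sds and Gpt (r = 0.70) then passed by both measures and Hpd and Hal (r = 0.66) by Pearson's r. Without m4238, m4223 and m4214, Tat and Hal passed by both (r = 0.69, permutation p = 0.00226, adjusted p = 0.0407, rho = 0.66, adjusted p = 0.0427). Sds and Gpt then passed by r (0.71, permutation p = 9.30e-04, adjusted p = 0.0335) and not by rho (adjusted p = 0.0503), whereas Sds and Got1 passed by rho (0.68, permutation p = 0.00191, adjusted p = 0.0427) and not by r (adjusted p = 0.0516). Tdo2 had negative correlations with Tat (r = -0.37) and Hal (r = -0.46), which did not pass the test with 24 mice (adjusted p = 0.261 and 0.145).

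**Figure D4:**
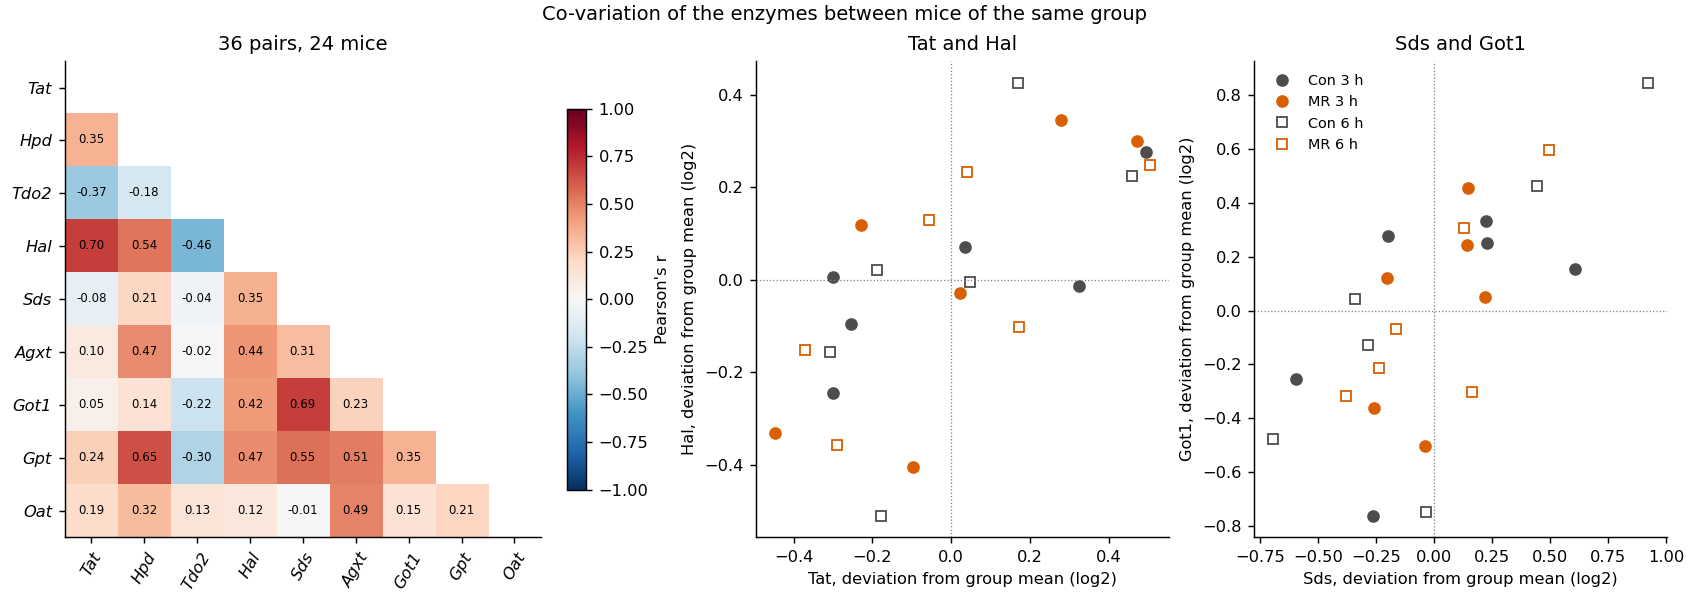
Left, Pearson's r of deviations from group means (colour, and number in each cell) for the 36 pairs of enzymes over 24 mice. Middle and right, deviations on the log2 scale for Tat (x) against Hal (y), r = 0.70, and for Sds (x) against Got1 (y), r = 0.69, with each mouse as a point. The open grey square at the upper right of the last panel is m4238.

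For each member, the genes with the most similar pattern were taken from 5917 genes with a mean of at least 10 units, as a description only, since levels over the 24 libraries follow time and library makeup as well. Agxt went most closely with Amdhd1 (Pearson's r = 0.91 over 24 libraries), and so did Hal (r = 0.84). Tat was most like Acnat1 (r = 0.85) and Ahr (r = 0.84), Sds was most like Igfbp4 (r = 0.86), and Gpt was most like Acy1 (r = 0.86), an aminoacylase, and Idh3b (r = 0.85). Got1 was nearest to Cpt1a (r = 0.80), the carnitine palmitoyltransferase of fatty acid oxidation, Tdo2 to Yrdc (r = 0.83), Hpd to Dpf2 (r = 0.77) and Oat to Usp14 (r = 0.70). With group means removed, Hal was nearest to the glutaminase Gls2 (r = 0.81), to Alb (r = 0.77) and to the urea cycle gene Ass1 (r = 0.76), all on the periportal list. Without m4238, m4223 and m4214 none of these was among the 3 genes nearest to Hal. The first of those 3 was Uroc1 (r = 0.83 over 21 libraries), which is also on the periportal list. The others were F7 (r = 0.82) and Gldc (r = 0.82), which are not on it. Sds, a member on the periportal list, had r = 0.35 with Hal over 24 libraries, which did not pass the permutation test (adjusted p = 0.288). Also with group means removed, and with all libraries, Agxt was nearest to Aldh4a1 (r = 0.79), Gpt to Idh3b (r = 0.83), Acy1 (r = 0.82) and the urea cycle gene Asl (r = 0.80), and Oat to Aldh1a1 (r = 0.81).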

How the data were processed

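Liver RNA of 24 mice, 6 per group, was measured by QuantSeq 3′ mRNA sequencing. Groups came from the labels, and columns were assigned to mice by the mouse numbers; no batch is given. The authors used CLC Genomics Workbench and Lexogen's Quantseq pipeline. DESeq2 1.22.2 and GRCm38 are named in the submitters' processing notes, with settings of the aligner not given in the sources used here. Deposited by the authors were 2 tables of score values, whole numbers with almost equal totals across libraries, and the same score divided by a size factor. They are not counts of reads, so depth is unknown, no counting error can be given, and precision rests on the spread between mice.

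Values of the first table were scaled by TMM (trimming 30% by log ratio and 5% by mean value), and log2(value + 1) was fitted with limma 3.58.1 (R 4.3.3, statmod 1.5.0) as 4 group means with a mean-variance trend and robust prior. Adjusted p-values are Benjamini-Hochberg over 9049 genes, with a threshold of 0.05. Fold changes and percent differences are on the log2(value + 1) scale. Exact two-sided permutation tests over 924 divisions of 12 mice were added for members (smallest p 0.00216), and permutation tests with 100000 resamples for pairs of members. The script was tested on simulated data. Coordinates and sequences are RefSeq's for GRCm38.p6, which holds 9005 of the 9049 names. Each mouse is 1 replicate, and the p-values for differences between groups rest on the spread between these mice.

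Named were all members with their paralogs, up to 4 genes with the smallest p per amino acid list, and up to 3 most similar genes per member. A few genes that this rule would name are not reported here. The members and lists were chosen with earlier results of these data known. Alternatives were other scalings, pseudocounts of 0.5 and 5, a filter at a mean of 10 units, other fits and leaving out libraries.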

Additional observations from a re-analysis of the deposited data

Results flagged for a closer look

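Of 36 sets of 6 values (9 enzymes in 4 groups), 1 held a mouse far from the others by Dixon's criterion, which chance meets in about 1 of 20 such sets. Oat in Con at 6 h was 472.4 units in m4234, and the remaining mice of the group lay between 294.7 and 329.7 units.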

How the results depend on the processing

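For single members, values under an alternative were labelled only where the member passed that comparison in at least 1 setting. Of these, 603 kept their direction where called and their side of the threshold, 22 came to pass, 27 no longer passed and 0 reversed. Differences that passed in no setting were left out of this tally, and some of them changed sign. Got1, MR against Con at 6 h, kept its sign in 7 of 9 other settings and 18 of 24 fits without 1 mouse. Counts of members that passed moved by over 1.5 times in 1 comparison. For 6 h against 3 h on MR, 4 members passed with array weights (Tat, Agxt, Got1, Gpt) and 4 without m4238, m4223 and m4214 (Tat, Agxt, Hal, Tdo2), against 2. Counts over all genes moved more. MR against Con at 6 h called 67 genes, 22 without these 3 libraries and 116 with array weights, and 33 to 78 when 1 mouse was left out (33 without the MR 6 h mouse m4219), while the members stayed at 0. The interaction called 6 genes, 2 without the 3 libraries and 3 without m4233. For 6 h against 3 h, 1774 genes on Con became 1163 when only these groups were fitted. MR against Con averaged over times called 27 genes, 14 without the 3 libraries and 49 with array weights, and 14 to 56 when 1 mouse was left out (14 without m4217, 56 without m4216). The cause of these shifts was not tested. Pairs of members that passed by Pearson's r numbered 3 with all libraries, 2 without the 3 libraries and 4 without m4238, and by both r and rho 3, 1 and 3. No paired analysis was possible because the mice carry no shared numbers. Read depth is unknown, so it could not be set beside the values.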
